A study of Rattus norvegicus with 287 samples.

Results

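The hypothalamic neuroendocrine peptides described here are encoded by 8 genes, chosen by symbol alone from the 32623 genes of the deposited table, of which 24854 had any count. They are Oxt (ENSRNOG00000021225), Avp (ENSRNOG00000021229), Crh (ENSRNOG00000012703), Trh (ENSRNOG00000011824), Sst (ENSRNOG00000001837), Ghrh (ENSRNOG00000007782), Gnrh1 (ENSRNOG00000013441) and Gal (ENSRNOG00000015156). The study sequenced RNA of 8 tissues, 287 libraries in all, from rats that received peripheral focused ultrasound (pFUS) over the porta hepatis, where vessels and nerves enter the liver, or a sham stimulus without energy. For these genes its design sets obese against lean rats and pFUS against control rats. Rats were under isoflurane during the stimulus, sham rats included, and tissue was stored in RNAlater.

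The 31 Brain libraries came from 7 groups, all at 7 weeks of treatment. They were 5 obese Zucker Diabetic Fatty (ZDF) rats with pFUS (numbers 6 to 10 in the labels), 5 obese ZDF controls (1 to 5), 5 lean Zucker rats with pFUS (16 to 20) and 5 lean Zucker controls (11 to 15), all male. The DIO-stz model, an abbreviation that the labels do not spell out, gave 4 males and 1 female with pFUS (7 to 11, with 11 female) and 2 females and 2 males as controls (3 to 6, with 3 and 4 female). A further 2 females called diet resistant (1 and 2) had pFUS and no control group, so they entered no comparison. Obese ZDF rats carry a defective leptin receptor, which makes them a model of obesity with diabetes but not of leptin-responsive obesity. Ages were not given in the sources used here. Brain libraries held 6946906 to 16504326 counts, with a median of 11693001, and levels below are library-size scaled counts (CPM).

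Oxytocin (Oxt) and vasopressin (Avp) are made by magnocellular neurons of the paraventricular and supraoptic nuclei, which send axons to the posterior pituitary and release the peptides into blood. Corticotropin-releasing hormone (Crh), thyrotropin-releasing hormone (Trh), growth hormone-releasing hormone (Ghrh) and gonadotropin-releasing hormone (Gnrh1) reach the anterior pituitary through the portal vessels and stimulate it, and somatostatin (Sst) inhibits growth hormone release. Galanin (Gal) is a co-transmitter of many of these neurons. Sst is also made by cortical and hippocampal interneurons, by islet delta cells and by D cells of the gut, Crh by cortical interneurons, and Gal by enteric neurons.

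Oxt and Avp are paralogous neighbours on chromosome 3, and RefSeq places them on opposite strands. Promoters of 6 of the 8 genes were matched in RefSeq on the GRCr8 build, each 250 bases before to 50 bases after the annotated start. The 4 below are shown because 3 of these genes, Oxt, Avp and Trh, varied together in 17 of the Brain libraries and Sst did not follow them. Those 17 were set apart after the values were seen, and within their cohorts no pair of members passed. In capitals are CATAAA, a variant of the TATA box, in Oxt and Avp, CGTCA, the reverse complement of TGACG, the core repeat of the cyclic AMP response element, in Avp and Trh, and the whole element TGACGTCA in Sst, the gene in which that element was first described. The Oxt window is chr3:138235504-138235803 on the plus strand, the Avp window chr3:138248473-138248772 on the minus strand, the Trh window chr4:126301713-126302012 on the minus strand and the Sst window chr11:90461296-90461595 on the plus strand.
Oxt: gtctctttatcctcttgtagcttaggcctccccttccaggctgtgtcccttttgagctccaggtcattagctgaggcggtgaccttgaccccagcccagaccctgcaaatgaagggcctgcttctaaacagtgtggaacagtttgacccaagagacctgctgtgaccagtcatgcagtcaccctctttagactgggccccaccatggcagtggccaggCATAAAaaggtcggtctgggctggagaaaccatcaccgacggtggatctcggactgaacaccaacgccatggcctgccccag
Avp: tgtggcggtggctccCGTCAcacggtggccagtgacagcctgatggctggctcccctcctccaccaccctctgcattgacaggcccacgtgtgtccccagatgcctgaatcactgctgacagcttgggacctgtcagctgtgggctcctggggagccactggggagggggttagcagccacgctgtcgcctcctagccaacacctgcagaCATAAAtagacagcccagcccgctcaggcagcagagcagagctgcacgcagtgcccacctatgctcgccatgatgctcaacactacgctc
Trh: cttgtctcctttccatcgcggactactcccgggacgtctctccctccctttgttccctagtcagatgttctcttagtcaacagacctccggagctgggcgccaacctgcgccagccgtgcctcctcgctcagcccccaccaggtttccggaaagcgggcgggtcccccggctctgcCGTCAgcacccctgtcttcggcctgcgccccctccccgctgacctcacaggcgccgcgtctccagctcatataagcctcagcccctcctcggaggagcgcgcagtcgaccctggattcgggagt
Sst: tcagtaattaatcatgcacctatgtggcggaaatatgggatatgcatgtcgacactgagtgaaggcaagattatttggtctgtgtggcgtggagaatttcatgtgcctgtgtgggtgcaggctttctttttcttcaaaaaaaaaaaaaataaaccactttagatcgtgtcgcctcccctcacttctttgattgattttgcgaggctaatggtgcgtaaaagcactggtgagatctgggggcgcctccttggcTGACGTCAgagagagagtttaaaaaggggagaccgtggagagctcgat

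CATAAA lay 32 bases before the annotated start of Oxt and 40 bases before that of Avp, and 12.7% of 33469 promoters of the same length held it on either strand. TGACGTCA was found in the Sst window alone among the 6 and in 1.83% of all promoters. In Sst it began at base 3 counted from the annotated start, so it lay after that start and not before it. TGACG, which is part of TGACGTCA, occurred in Avp, Trh, Gal and Sst and in 21.2% of all promoters. TATAAA was found in Gal alone among the 6 and in 14.2% of all promoters. The Ghrh window held none of the 4 motifs searched on both strands. These matches are descriptions of the sequence, and nothing was measured on these promoters here.

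Oxt and Avp were high in about as many Brain libraries as they were nearly absent from, and 2 markers of the hypothalamus, Hcrt and Pmch, were high in the same libraries. The tissue is labelled Brain, and the design text of the series names hypothalamus. Hcrt and Pmch, which encode orexin and melanin-concentrating hormone and mark neurons of the lateral hypothalamus, summed to 8.58 to 490 CPM in 17 libraries and to 0.0874 to 4.30 CPM in the other 14. The line between them was drawn at 5 CPM after the values were seen, and it follows no label. Hcrt and Pmch come from a list of 12 genes of other hypothalamic neurons, and all others of that list overlapped between the sets. All of these but Npy, with a median of 0 CPM in both sets, had the higher median in the 17. Tac3, for example, was at 3.46 to 16.5 CPM in the 17 and 0.996 to 16.9 CPM in the 14. Oxt was at 6.93 to 494 CPM in the 17 libraries and at 0 to 1.55 CPM in the 14, with 7 of the 14 at 0. Avp was at 7.88 to 440 CPM in the 17 and at 0 to 1.23 CPM in the 14. Neither gene overlapped between the 2 sets, although neither was used to draw the line. How many of all genes separate the 2 sets in this way was not counted, so the separation is not shown to be particular to Oxt and Avp. The values are a description with no test, since the sets are not groups of the study.

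**Figure D1:**
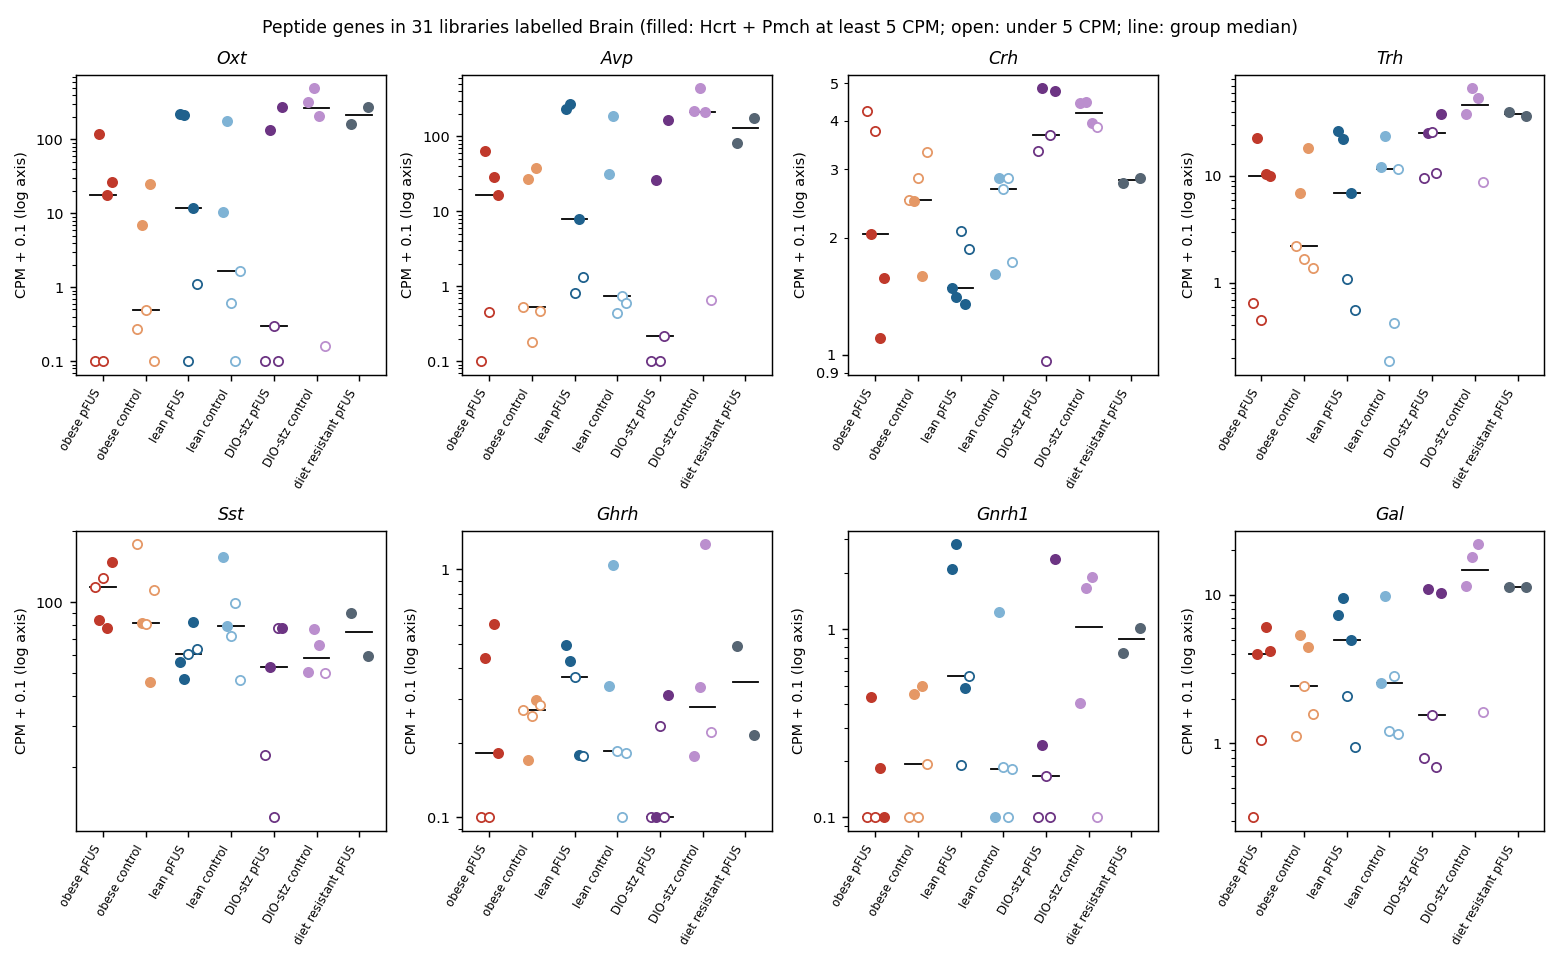
Level of each of the 8 genes in every Brain library, in CPM plus 0.1 on a log axis, by group, with a line at each group's median. Filled points are the 17 libraries with at least 5 CPM of Hcrt plus Pmch and open points the 14 with less: for Oxt and Avp open points lie at 1.55 CPM or lower in every group, and for Crh and Sst filled and open points mix.

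Other members followed this line less closely. Gal was at 2.46 to 21.7 CPM in the 17 libraries and at 0.218 to 2.76 CPM in the 14, so the sets met at their edges. Trh was at 6.79 to 66.1 CPM in the 17 and at 0.0857 to 25.8 CPM in the 14. Crh did not separate them, at 1.00 to 4.75 CPM in the 17 and 0.863 to 4.13 CPM in the 14. Sst did not either, at 45.7 to 155 CPM in the 17 and 12.2 to 175 CPM in the 14. Ghrh and Gnrh1 were near the floor of the assay, with highest values of 1.16 and 2.72 CPM, both in libraries of the 17. The plot of members against Hcrt plus Pmch shows the same division library by library.

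**Figure D2:**
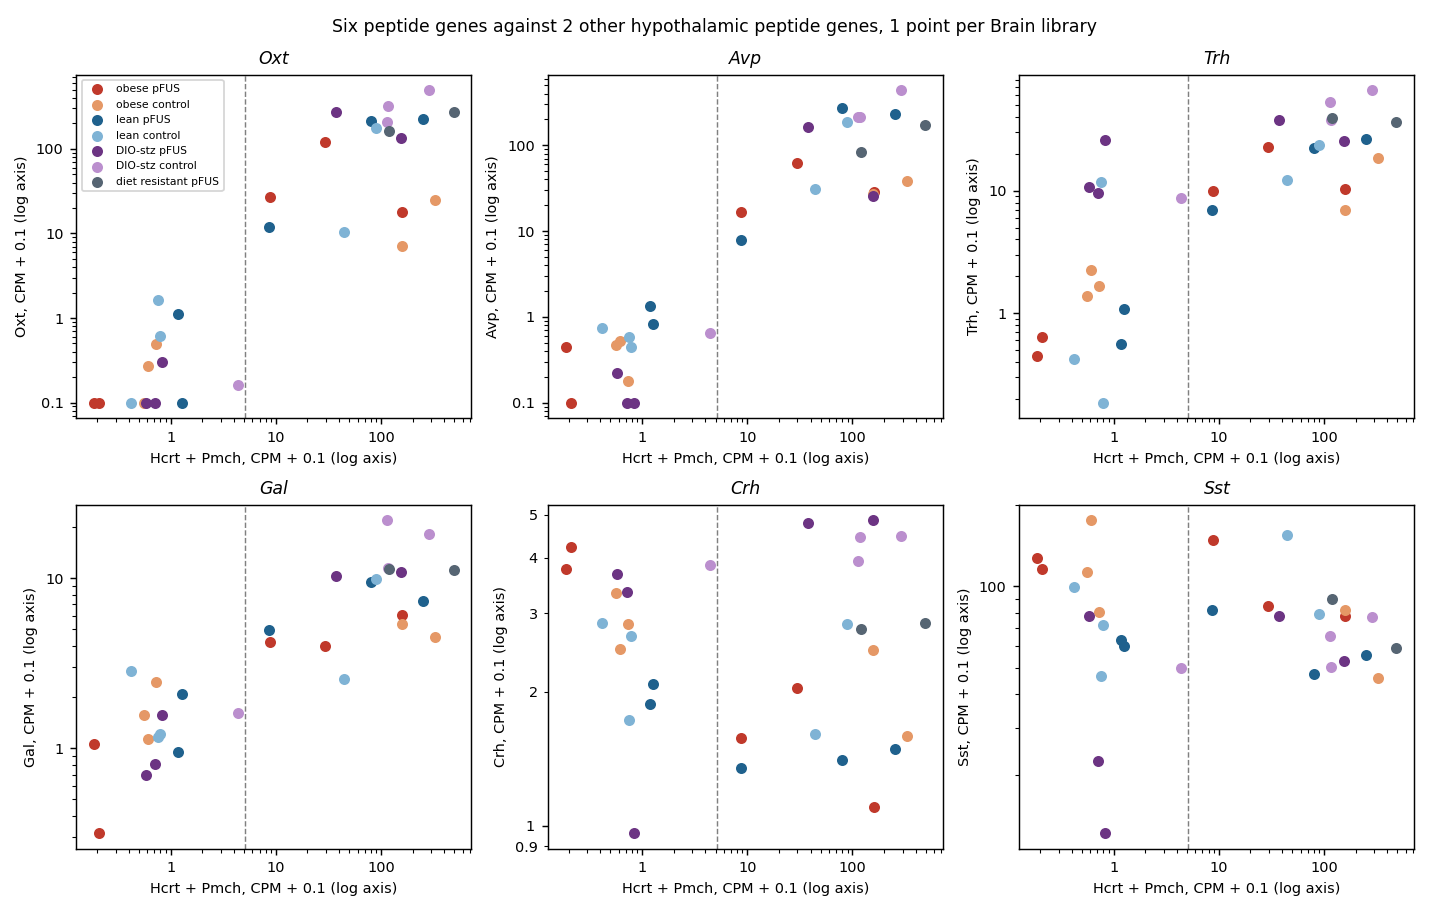
Level of 6 members in each Brain library (vertical axis) against the summed level of Hcrt and Pmch (horizontal axis), both in CPM on log axes, with a dashed line at 5 CPM. Left of the line Oxt and Avp stay at or under 1.55 CPM, while Sst and Crh cover nearly the same range on both sides.

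Some of the 14 transcription factors listed for these neurons showed the same division, and others did not. Otp, which specifies paraventricular and supraoptic neurons, was at 0.327 to 12.3 CPM in the 17 libraries and at 0 to 0.526 CPM in the 14, with 10 of the 14 at 0. Nkx2-1, a factor of the ventral hypothalamus, had a median of 5.23 CPM in the 17 and 0.338 CPM in the 14. Tbr1, a factor of cortical projection neurons, ran the other way, with a median of 7.37 CPM in the 17 and 41.5 CPM in the 14. Of the listed factors that did not divide the libraries, Pou3f2 had medians of 8.13 and 8.60 CPM in the same order. Arnt2 had medians of 296 and 338 CPM and Lhx6 of 2.135 and 2.164 CPM. The whole list summed to a median of 358 CPM in the 17 libraries and 467 CPM in the 14. The 7 markers of cortex and hippocampus summed to 92.6 to 2387 CPM (median 297) in the 17 libraries and to 266 to 2306 CPM (median 1501) in the 14. General neuronal genes summed to medians of 3371 and 4699 CPM in the same order, so the 14 did not lack neurons. Low Hcrt and Pmch in the 14 libraries follow from how the line was drawn. Otp and Nkx2-1 overlapped between the sets, and the whole list of factors was not lower in the 14. Which brain region the 14 libraries hold was not tested, and no label of the samples names one.

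Every group but the diet resistant females held libraries of both sets. At least 5 CPM of Hcrt plus Pmch were found in 3 of 5 obese pFUS libraries (7, 9 and 10), 2 of 5 obese controls (2 and 4), 3 of 5 lean pFUS libraries (16, 17 and 19) and 2 of 5 lean controls (11 and 12). In DIO-stz rats they were found in 2 of 5 pFUS libraries (8 and 11) and 3 of 4 controls (3, 4 and 5). All 5 females of the 31 rats were in the 17, against 12 of 26 males. In bulk tissue fewer cells of a type and less RNA per cell cannot be told apart, and each comparison is given for all libraries first and then for the 17. The part of dissection in the spread of these libraries was not tested.

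Oxt, which acts on milk ejection, parturition and feeding, was at 0, 120, 0, 17.7 and 26.7 CPM in obese pFUS rats 6 to 10, against 0.171, 6.93, 0.392, 25.1 and 0 CPM in obese controls 1 to 5. It was at 224, 213, 0, 11.8 and 1.00 CPM in lean pFUS rats 16 to 20, against 10.4, 176, 0.514, 0 and 1.55 CPM in lean controls 11 to 15. Each of the 4 groups held libraries at or near 0 beside libraries far above, and all overlapped each other. Avp, the antidiuretic hormone, was at 0, 62.8, 0.350, 28.5 and 16.6 CPM in obese pFUS rats, against 0.428, 27.2, 0.0784, 38.0 and 0.369 CPM in obese controls. It was at 230, 272, 0.720, 7.88 and 1.23 CPM in lean pFUS rats, against 30.9, 188, 0.343, 0.636 and 0.489 CPM in lean controls. The libraries high in Avp were those high in Oxt.

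For obese against lean controls the log2 fold change of Oxt was -2.65 (SE 1.92, 95% interval -6.66 to 1.36) and that of Avp -1.86 (SE 1.78, -5.59 to 1.87). Neither passed edgeR's quasi-likelihood test with Benjamini-Hochberg adjustment over all genes (adjusted p of 1.00 each). Both values rested on lean control 12: without it they were 0.80 for Oxt and 0.47 for Avp. This library also had 61.1 CPM of Cga, a pituitary marker, whose median in the 17 libraries was 0.156 CPM. The part of such content in the fold changes was not tested. In the 17 libraries, 2 controls of each strain, log2 fold changes were -2.66 (SE 1.52) for Oxt and -1.89 (SE 1.25) for Avp. Here 0 of the 6 members tested were called, by edgeR and by DESeq2, beside 48 of 14791 genes (0.325%) by edgeR and 103 of 14790 (0.696%) by DESeq2. The 6 were Oxt, Avp, Crh, Trh, Sst and Gal, and Ghrh and Gnrh1 did not pass the filter on low counts.

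The same contrast in rats with pFUS shares no library with the controls. Oxt had a log2 fold change of -1.47 (SE 1.81) and Avp of -2.27 (SE 1.79, -6.02 to 1.48, adjusted p = 0.503) for obese pFUS against lean pFUS. With the 17 libraries Avp stood at -2.30 (SE 1.03, -4.62 to 0.03, adjusted p = 0.572). Of the 6 members 0 were called, beside 383 of 14791 genes (2.59%), and DESeq2 called 0 members beside 7.91% of genes. In both strain contrasts the 95% intervals of Oxt and Avp included 0.

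The pFUS contrasts share their control libraries with the strain contrast. With ultrasound in obese rats, Oxt had a log2 fold change of 2.42 (SE 1.90, -1.56 to 6.40) and Avp of 0.78 (SE 1.75, -2.88 to 4.44). In lean rats the pFUS values were 1.24 (SE 1.80) for Oxt and 1.19 (SE 1.73) for Avp. Calls were 0 of 6 members in obese rats, beside 0 of 14791 genes (0%, with 281 at an unadjusted p under 0.05 and 7 called by DESeq2). In lean rats they were also 0 of 6, beside 0 of 14791 genes (0%, 985 and 2). The difference between the pFUS effects in obese and lean rats was 1.18 (SE 2.55) for Oxt, and again 0 of 6 members and 0 of 14791 genes (0%, 774 and 3) were called. Without lean control 12 the Oxt difference was -2.27 and without obese pFUS 7 it was -0.39, so its direction rested on single rats.

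**Figure D3:**
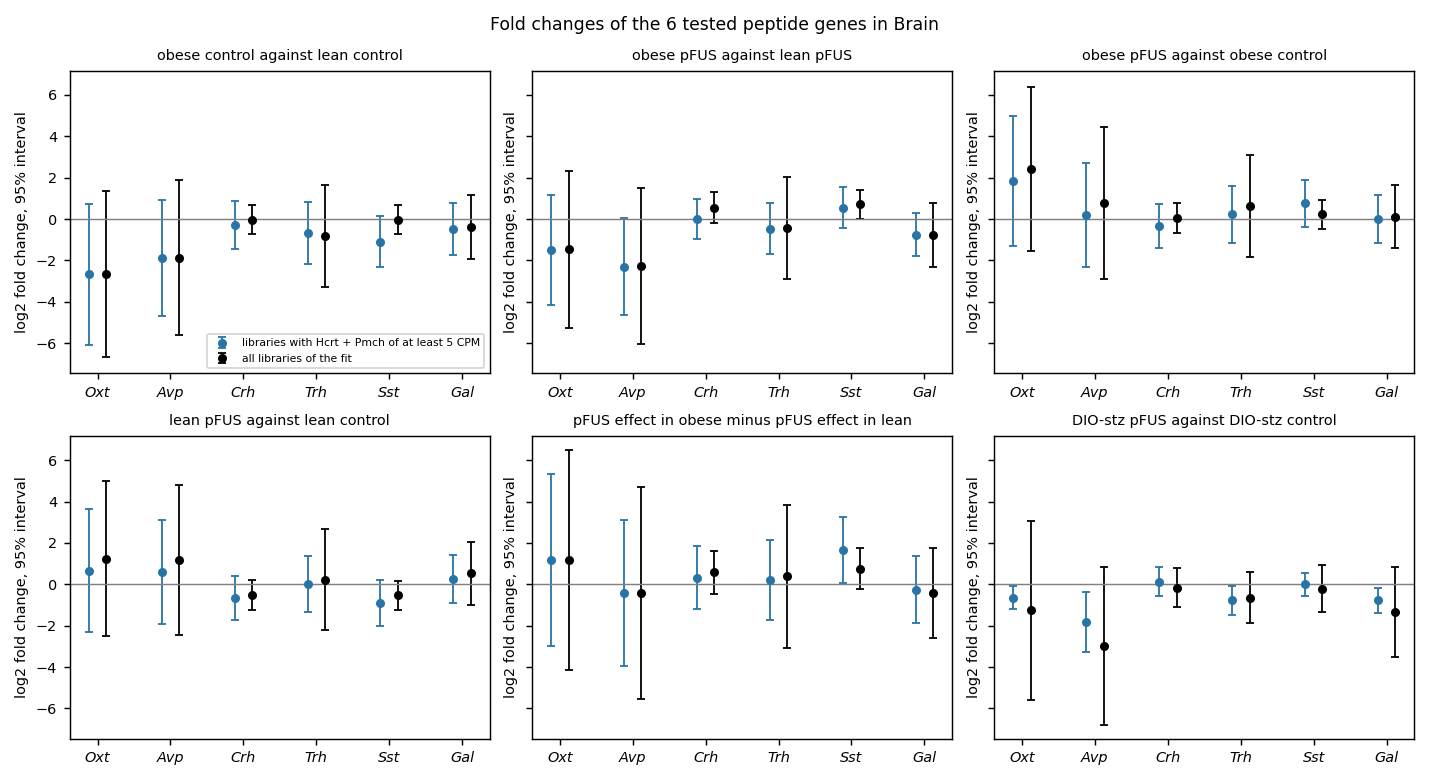
Log2 fold change of 6 members with its 95% interval in 6 Brain comparisons, in black from all libraries and in blue from the libraries with at least 5 CPM of Hcrt plus Pmch. No point passed the adjusted threshold, and intervals of Oxt and Avp from all libraries span several log2 units while those of Crh and Sst are the narrowest.

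In DIO-stz rats Oxt was at 0, 136, 0.199, 0 and 273 CPM with pFUS (rats 7 to 11), against 321, 494, 209 and 0.0606 CPM in controls 3 to 6. Avp was at 0, 25.8, 0, 0.119 and 165 CPM with pFUS, against 215, 440, 212 and 0.545 CPM in controls. In both genes 3 of 5 pFUS libraries and 1 of 4 controls were near 0. With sex in the model, log2 fold changes for pFUS against control were -1.26 (SE 1.89, -5.58 to 3.05) for Oxt and -2.99 (SE 1.67, -6.80 to 0.83) for Avp. Without control 5, which had 40.2 CPM of the pituitary marker Cga, they were 2.33 and 0.64. Of 6 members 0 were called, beside 0 of 14562 genes (0%, with 315 at an unadjusted p under 0.05 and 2 called by DESeq2).

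With the 5 DIO-stz libraries rich in Hcrt and Pmch, 2 with pFUS and 3 controls, errors were far smaller. Log2 fold changes for pFUS against control were -0.64 (SE 0.218) for Oxt, -1.83 (SE 0.549) for Avp, -0.76 (SE 0.272) for Trh and -0.78 (SE 0.244) for Gal. All 4 had edgeR p-values between 0.0225 and 0.0389 before adjustment and an adjusted p of 0.955, with 0 genes called of 14771 and 665 at an unadjusted p under 0.05. Crh and Sst had values of 0.13 and -0.01. This set was chosen after the data were seen, and it has 2 residual degrees of freedom among its libraries.

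Between the sexes Oxt and Avp had higher values in females, within their error. Avp had a log2 fold change of 3.22 (SE 1.63, -0.52 to 6.95) and Oxt of 2.48 (SE 1.91) for DIO-stz females against males (adjusted p = 0.992 each). All 3 females were rich in Hcrt and Pmch and 4 of 6 males were not. In the 5 rich libraries, with 2 males, Oxt was at 273, 321 and 494 CPM in females, against 136 and 209 CPM in males, a log2 fold change of 1.01 (SE 0.221, 0.44 to 1.57, adjusted p = 0.999). Calls were 0 of 6 members by edgeR and DESeq2, beside 6 of 14562 genes (0.0412%) by edgeR and 17 of 14540 (0.117%) by DESeq2. DESeq2 gave Oxt no p-value in the DIO-stz fits.

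The ratio of Oxt to Avp within a library is free of library size. In the 17 libraries it ran from 0.255 to 5.27 with a median of 1.12. It was 1.91, 0.622 and 1.61 in obese pFUS rats 7, 9 and 10, against 0.255 and 0.660 in obese controls 2 and 4. In lean rats it was 0.972, 0.782 and 1.495 with pFUS, against 0.337 and 0.935 in controls. In DIO-stz rats it was 5.27 and 1.65 with pFUS, against 1.49, 1.12 and 0.986 in controls. The groups overlapped in obese and in lean rats and not in DIO-stz rats, where 2 pFUS values face 3, and no test was run on ratios chosen after the data were seen. Both genes encode a neurophysin of much the same sequence, and how the quantification split reads between them cannot be checked from the counts.

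Of the releasing hormones, Trh, which drives thyrotropin, was at 0.544, 22.6, 0.350, 10.3 and 9.90 CPM in obese pFUS rats, against 2.14, 6.79, 1.57, 18.3 and 1.29 CPM in obese controls. It was at 26.1, 22.3, 0.990, 6.86 and 0.463 CPM in lean pFUS rats, against 12.2, 23.4, 0.0857, 0.318 and 11.6 CPM in lean controls. It was at 9.39, 25.3, 25.8, 10.5 and 37.6 CPM in DIO-stz pFUS rats, against 38.0, 66.1, 53.3 and 8.66 CPM in DIO-stz controls. Trh was never at 0, and DIO-stz rats low in Hcrt and Pmch still had 8.66 to 25.8 CPM of it, where Oxt was at most 0.199 CPM. Log2 fold changes were -0.83 (SE 1.18) for obese against lean controls, 0.61 (SE 1.18) for pFUS in obese rats, 0.22 (SE 1.17) in lean rats and -0.65 (SE 0.541) in DIO-stz rats. None passed the test.

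Crh, which drives corticotropin, was the steadiest member. It was at 1.00 to 4.13 CPM (median 1.94) in obese pFUS rats, against 1.49 to 3.23 CPM (median 2.39) in obese controls. Lean pFUS rats had 1.25 to 1.98 CPM (median 1.39), against 1.51 to 2.76 CPM (median 2.57) in lean controls. DIO-stz pFUS rats had 0.863 to 4.75 CPM (median 3.58), against 3.76 to 4.37 CPM (median 4.09) in DIO-stz controls. The log2 fold change for obese against lean controls was -0.02 with an interval of -0.75 to 0.70, and for pFUS in obese rats 0.06 with an interval of -0.66 to 0.78. For pFUS in lean rats it was -0.51 (-1.25 to 0.23, adjusted p = 0.824). The 14 libraries with almost no Otp covered much the same range of Crh as the 17, so paraventricular and cortical Crh cannot be told apart here.

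Ghrh and Gnrh1 were too low to be tested over all libraries. Ghrh, made by arcuate neurons, had 78 counts over the 31 libraries, of which 13 were in DIO-stz control 5 and 10 in lean control 12. These 2 libraries also had 1.16 and 0.946 CPM of it, against at most 0.502 CPM in the others. Gnrh1, whose neurons are scattered through the preoptic area, had 182 counts. It was at 0.338, 0.0837 and 0 CPM in obese pFUS rats 7, 9 and 10, against 1.98, 2.72 and 0.390 CPM in lean pFUS rats 16, 17 and 19. Gnrh1 did not pass the filter over all libraries. It passed in the 17 libraries, through those where it was high, and in some refits of DIO-stz rats, 2 of them with 1 library left out. No fold change is given for it.

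Sst was at 116, 84.3, 127, 77.7 and 148 CPM in obese pFUS rats, against 175, 81.7, 80.5, 45.7 and 113 CPM in obese controls. It was at 55.7, 47.3, 60.2, 82.0 and 63.2 CPM in lean pFUS rats, against 155, 79.0, 72.0, 99.4 and 46.7 CPM in lean controls. With pFUS the groups overlapped narrowly, since 1 lean value (82.0 CPM) lay above 1 obese value (77.7 CPM). The log2 fold change for obese pFUS against lean pFUS was 0.71 (SE 0.336, 0.01 to 1.41, adjusted p = 0.232, edgeR), the only one of 42 Brain tests of members with an unadjusted p under 0.05. In this contrast 3133 of 14791 genes had an unadjusted p under 0.05. The Sst value lay between 0.58 and 0.91 when any 1 library was left out. Its adjusted p lay between 0.0836 and 0.78 over the alternatives, and the value was 0.55 (SE 0.444) in the 17 libraries. The cortex and hippocampus markers summed to 895 to 1895 CPM (median 1706) in obese pFUS rats, against 287 to 928 CPM (median 484) in lean pFUS rats. Their part in the Sst value was not tested.

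None of the other Sst contrasts in brain passed the test. The log2 fold change was -0.04 (SE 0.334, -0.74 to 0.66) for obese against lean controls and 0.23 (SE 0.334) for pFUS in obese rats. It was -0.52 (SE 0.335, -1.22 to 0.18, adjusted p = 0.809) for pFUS in lean rats, and the difference between the pFUS effects was 0.75 (SE 0.473, adjusted p = 0.962). With the 17 libraries that difference was 1.66 (SE 0.704, 0.07 to 3.24, adjusted p = 1.00). DIO-stz rats had 22.5, 53.0, 12.2, 77.9 and 77.8 CPM with pFUS, against 50.5, 76.8, 65.5 and 49.9 CPM in controls, with a log2 fold change of -0.20 (SE 0.493). The pFUS values bracketed the controls on both sides.

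Gal was at 0.218, 3.89, 0.962, 5.94 and 4.09 CPM in obese pFUS rats, against 1.03, 5.25, 2.35, 4.37 and 1.48 CPM in obese controls. It was at 7.24, 9.35, 1.98, 4.83 and 0.848 CPM in lean pFUS rats, against 2.46, 9.74, 1.11, 2.76 and 1.06 CPM in lean controls. It was at 0.702, 10.8, 1.46, 0.597 and 10.1 CPM in DIO-stz pFUS rats, against 11.4, 18.0, 21.7 and 1.51 CPM in DIO-stz controls. All pairs of groups overlapped. The largest log2 fold change was that for pFUS in DIO-stz rats, -1.35 (SE 0.950, -3.52 to 0.82), which was 0.20 without control 5. The others ran from -0.78 (SE 0.733) for obese pFUS against lean pFUS to 0.95 (SE 0.965) for DIO-stz females against males.

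Members were next compared by how they varied between rats of a group, as deviations of log2(CPM + 1) from the group mean, with 100000 permutations within groups and adjustment over the 15 pairs of 6 members. Over all 31 libraries 8 of the 15 pairs passed, but the libraries fall into the 2 sets described, so no pooled coefficient is given. In the 17 libraries 3 pairs passed, those among Oxt, Avp and Trh. Oxt and Avp had a Pearson r of 0.89 (adjusted p = 0.0231) and a Spearman rho of 0.82 (adjusted p = 0.0195), with r = 0.82 without the 2 libraries of most extreme Oxt. Oxt and Trh had an r of 0.88 (adjusted p = 0.0338) and a rho of 0.87 (adjusted p = 0.048), with r = 0.85 without 2. Avp and Trh had an r of 0.81 (adjusted p = 0.0311) and a rho of 0.75 (adjusted p = 0.0195), with r = 0.73 without 2. All 3 genes are known to be expressed in the paraventricular nucleus. The 17 libraries still ran from 8.58 to 490 CPM of Hcrt plus Pmch, and the part of tissue content in these correlations was not tested.

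Sst and Crh did not share this relation. Sst had an r of -0.70 with Oxt in the 17 libraries (adjusted p = 0.243), and Crh had r of 0.34, 0.11 and 0.02 with Oxt, Avp and Trh. Gal had an r of 0.44 with Oxt in the 17 (adjusted p = 0.687). In the 14 libraries 0 of 15 pairs passed. Within cohorts of the 17 also 0 pairs passed after adjustment, with r of 0.92 for Oxt and Avp in the 10 ZDF and lean rats (adjusted p = 0.104) and 0.85 in the 7 DIO rats (adjusted p = 0.625), all by permutation.

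The 3 genes whose deviations were most like a member's were ranked by Pearson r among 14223 genes over the 31 libraries, and r is given here for the 17 alone, as a description of libraries that share their content and depth. Nearest to Oxt were Avp (0.89), the calcitonin receptor gene Calcr (0.84) and Gal (0.44). Nearest to Avp were Oxt, Calcr (0.80) and Pmch (0.52). For Gal they were Oxt, Avp (0.42) and Calcr (0.70), so Calcr was among the first 3 of each of these members. For Trh they were Igsf1 (-0.05), Ecel1 (0.53) and Cyb5r2 (-0.20). Igsf1, a membrane protein whose loss causes central hypothyroidism in humans, ranked first for Trh over the 31 libraries and had no such relation to it within the 17.

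For Sst the nearest genes were those of synaptotagmin Syt5 (0.87), cadherin Cdh22 (0.90) and Dpysl4 (0.77). For Crh they were Pitpnm3 (0.58), Uhrf1 (0.72) and Cnot10 (0.19).

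Receptors and binding proteins of these peptides numbered 21, of which 12 or 13 passed the filter in a Brain fit. Over the 7 Brain comparisons edgeR called 0 of 89 tests (13 at an unadjusted p under 0.05), and DESeq2 called 2, Crhr2 and Sstr4, both in obese pFUS against lean pFUS, where it called 1170 of 14790 genes (7.91%). The median log2 fold change of the 13 was 0.55 for obese pFUS against lean pFUS (-0.02 over all genes) and 0.09 for obese against lean controls (-0.02 over all genes). Avpr1a, the vasopressin receptor of neurons, was at 1.15 to 3.49 CPM in the 17 libraries and 0.171 to 2.18 CPM in the 14. Crhr1, the main brain receptor of Crh, was at 2.75 to 10.0 CPM in the 17 and 2.79 to 12.7 CPM in the 14, and its median was higher in the 14 (8.38 CPM, and 4.03 CPM in the 17). Sstr1 had medians of 24.4 CPM in the 17 and 43.6 CPM in the 14. The receptors expressed in the pituitary and kidney, Avpr1b and Avpr2, were at or near 0 throughout.

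Of 13 genes for processing and granule release, 12 were tested, and 3 rose in obese pFUS against lean pFUS rats, where 383 of 14791 genes (2.59%) were called. They were Pcsk2, a convertase that cuts peptide precursors (log2 fold change 1.06, SE 0.235, adjusted p = 0.0272), and Cadps and Cadps2, which prime dense-core vesicles (1.20, SE 0.268, adjusted p = 0.029, and 1.27, SE 0.297, adjusted p = 0.0326). The list's median was 0.43, beside -0.02 over all genes. In the 17 libraries edgeR called 0 of 15104 genes (0%, with 1333 at an unadjusted p under 0.05), the list included, and log2 fold changes were 1.23 (SE 0.361) for Pcsk2, 1.57 (SE 0.388) for Cadps and 1.07 (SE 0.43) for Cadps2. The cortex and hippocampus markers had a median log2 fold change of 1.57 in that contrast, with 0 of 7 called, and Cadps, Cadps2 and Pcsk2 had higher medians in the 14 libraries than in the 17. The part of tissue content in these calls was not tested. Over all libraries DESeq2 called 5 of the list (Cpe and Scg5 beside the 3) and 3 of the 7 cortex and hippocampus markers, beside 7.91% of all genes. Of 5 microglia markers 1 fell in this contrast, Aif1 (log2 fold change -1.12, SE 0.220, adjusted p = 0.0171, edgeR), which was at -1.29 (SE 0.311, adjusted p = 0.536) in the 17. None of the list passed by either tool in the other 6 Brain comparisons. Related peptides gave 0 calls in 37 tests by either tool (5 at an unadjusted p under 0.05).

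Outside the brain 3 of the 8 genes, Sst, Gal and Trh, reached 1 CPM in the mean of some group. Sst averaged 17.8 ± 5.19 CPM (SD, n = 29) in intestine and 6.81 ± 8.43 CPM (n = 20) in pancreas, beside 78.8 ± 36.6 CPM (n = 31) in brain. Gal averaged 5.87 ± 3.58 CPM in intestine, close to its 5.47 ± 5.39 CPM in brain, and 1.82 ± 3.46 CPM (n = 21) in kidney. Trh averaged 0.777 ± 1.03 CPM in pancreas and 0.570 ± 0.804 CPM (n = 48) in adipose tissue. Adipose tissue, liver and muscle also held 6 groups of obese ZDF males, 4 rats each, on other schedules as the labels name them: pFUS for 3 days AM only x1 and x10, pFUS for 4 weeks AM only x10 and AM & PM x1 and x10, and controls at 3 days. What x1 and x10 stand for is not spelled out, and these groups entered the tissue means and no test. Of the pFUS groups on these schedules, only those whose adipose Trh reached a mean of 1 CPM are given. They are high by that choice, so their values do not show a rise over controls. Adipose Trh averaged 1.27 ± 0.410 CPM with pFUS for 3 days AM only x1, against 0.893 ± 0.698 CPM in controls at 3 days (SD, n = 4 each). With pFUS for 4 weeks AM only x10 it averaged 1.05 ± 1.16 CPM (SD, n = 4), and there was no control group at 4 weeks. At 7 weeks Trh averaged 0.0808 ± 0.162 CPM in lean pFUS rats, against 1.40 ± 1.67 CPM in lean controls (SD, n = 4 each). Of these lean controls 2 were at 0 and the highest was at 3.32 CPM. No adipose comparison was tested. Gnrh1 was at a mean of 0.355 CPM in adipose tissue and 0.272 CPM in intestine. Oxt had 0 counts in intestine, pancreas, liver, kidney, muscle and blood, which allows a level of up to 0.007 CPM in intestine and 0.0114 CPM in pancreas by counting error alone (3 counts of the tissue's total). Crh had 0 counts in intestine, pancreas, liver and adipose tissue.

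**Figure D4:**
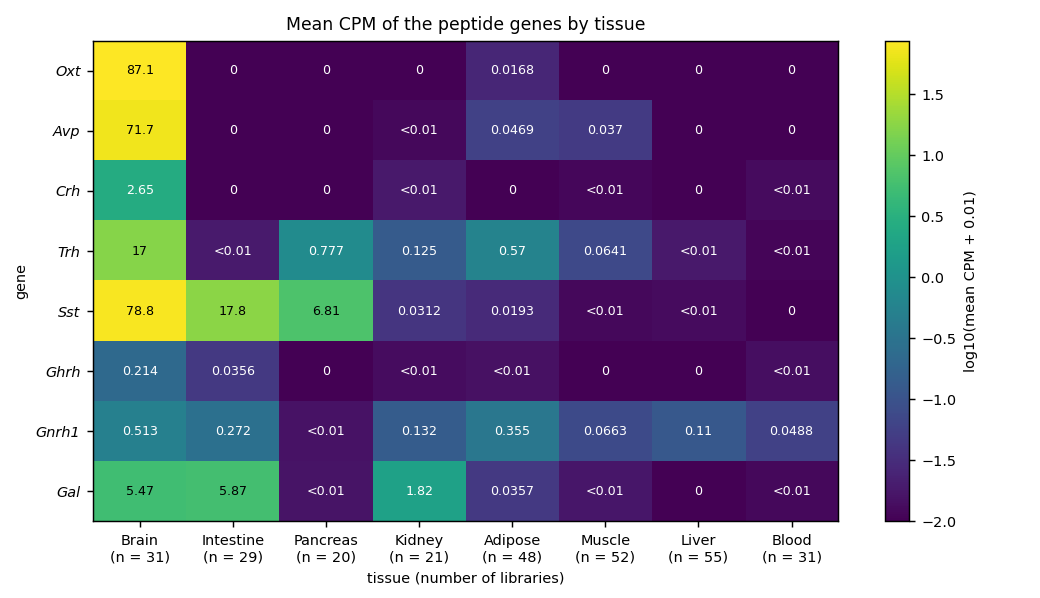
Mean CPM of the 8 genes in the 8 tissues, over all libraries of a tissue. Only Sst and Gal exceed 1 CPM in a tissue other than brain (intestine for both, pancreas for Sst, kidney for Gal).

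Intestinal Sst, from D cells that restrain gut hormone release, was at 33.7, 21.6, 28.6, 22.5 and 13.8 CPM in DIO-stz pFUS rats 7 to 11, against 15.5, 10.9, 15.0 and 12.4 CPM in DIO-stz controls. All pFUS rats but number 11, the female, were above all controls. A log2 fold change of 0.71 (SE 0.261, 0.13 to 1.29) did not pass edgeR's test after adjustment (adjusted p = 0.994). Of 2 members tested, Sst and Gal, 0 were called, beside 0 of 14068 genes (0%, with 349 at an unadjusted p under 0.05 and 6 called by DESeq2). In obese rats Sst was at 18.4, 21.2, 15.2, 17.4 and 17.6 CPM with pFUS, against 9.80, 20.1, 23.6, 12.1 and 15.3 CPM in controls. Its log2 fold change there was 0.44 (SE 0.207, adjusted p = 0.274), with groups that overlapped, and 0 of 2 members were called beside 9 of 14709 genes (0.0612%).

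Lean rats had 17.5, 15.3 and 13.1 CPM of intestinal Sst with pFUS (rats 16, 18 and 19), against 19.5, 15.1, 21.1, 15.0 and 17.9 CPM in controls, a log2 fold change of -0.15 (SE 0.240). For obese against lean controls it was -0.13 (SE 0.206, -0.56 to 0.31). Fabp6, the ileal bile acid binding protein, was at 3744 to 14140 CPM in 6 of the 29 intestine libraries and at 0.390 to 401 CPM in the rest. Without those, 3 in the DIO-stz and 3 in the ZDF and lean cohort, Sst stood at 0.96 (SE 0.331, adjusted p = 0.968) for pFUS in DIO-stz rats and 0.31 (SE 0.185, adjusted p = 0.347) in obese rats. Enteroendocrine markers summed to 336 to 467 CPM in DIO-stz pFUS rats, against 190 to 462 CPM in DIO-stz controls. In obese rats they summed to 313 to 348 CPM with pFUS, all below the 380 to 521 CPM of controls. Smooth muscle markers there summed to 1171 to 2528 CPM (median 1324) with pFUS, against 1793 to 3610 CPM (median 2486) in controls. The part of these cells in the Sst values was not tested. Of 10 enteroendocrine markers 1 rose with pFUS in obese rats without the libraries rich in Fabp6, the secretin gene Sct (log2 fold change 0.87, SE 0.196, adjusted p = 0.0386), beside 359 of 14524 genes called (2.47%), and with all libraries it was at 0.68 (SE 0.352, adjusted p = 0.317).

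Intestinal Gal was at 3.62, 4.92, 2.29, 4.57 and 8.29 CPM in obese controls, against 12.7, 8.40, 13.5, 6.23 and 6.64 CPM in lean controls. Only 1 obese control, number 5, was above any lean control. The log2 fold change was -0.99 (SE 0.350, -1.73 to -0.25, adjusted p = 0.264), with an adjusted p of 0.137 to 0.609 over the alternatives, and 0 of 2 members were called beside 2 of 14709 genes (0.0136%). Lean pFUS rats had 5.35, 3.65 and 4.69 CPM, all below the lean controls, a log2 fold change of -0.998 (SE 0.416, -1.87 to -0.12, adjusted p = 0.452). There 0 of 2 members were called beside 1 of 14709 genes (0.0068%). The 2 contrasts share the lean controls.

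Enteric neuron markers, from cells that make Gal, summed to 41.0 to 99.9 CPM (median 68.9) in obese controls and 52.3 to 65.1 CPM (median 63.6) in lean pFUS rats, against 53.7 to 152 CPM (median 118) in lean controls. Smooth muscle markers summed to 1793 to 3610 CPM in obese controls and 1622 to 1728 CPM in lean pFUS rats, against 1911 to 3938 CPM in lean controls. Their part in the Gal values was not tested. Obese pFUS rats had 6.20, 2.01, 2.89, 2.82 and 2.96 CPM of Gal, with a log2 fold change of -0.19 (SE 0.357) against obese controls. DIO-stz rats had 4.49, 1.73, 12.1, 5.22 and 3.52 CPM with pFUS, against 9.46, 9.93, 3.24 and 13.1 CPM in controls (-0.84, SE 0.567).

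Pancreatic Sst, from islet delta cells, was at 4.88, 2.11, 9.06 and 4.86 CPM in DIO-stz pFUS rats 7, 8, 10 and 11, against 7.35, 5.10, 40.3 and 1.54 CPM in DIO-stz controls 3 to 6. Control 5 stood far above the rest. Between DIO-stz groups it differed by a log2 fold change of -1.67 (SE 0.640, -3.18 to -0.16, adjusted p = 0.433), between -2.07 and -0.90 when 1 library was left out, with an adjusted p of 0.0513 to 0.808 over the alternatives. Of 1 member tested 0 were called, beside 92 of 10743 genes (0.856%). Islet markers summed to 169 to 954 CPM (median 862) with pFUS, against 26.1 to 355 CPM (median 113) in controls. Most of these sums came from the insulin genes of beta cells: Ins1 was at 412, 76.2, 374 and 429 CPM with pFUS, against 40.9, 41.4, 138 and 10.5 CPM in controls. Gcg, the glucagon gene of alpha cells, was at 26.3, 10.4, 66.4 and 42.6 CPM with pFUS, against 20.3, 49.1, 119 and 8.01 CPM in controls. Ppy, the pancreatic polypeptide gene, was at 0.329 to 5.65 CPM with pFUS, against 0.165 to 5.09 CPM in controls, so both genes overlapped between the groups. Of 9 islet markers tested 1 was called by edgeR, Ins2, which rose with pFUS (log2 fold change 3.11, SE 0.542, adjusted p = 0.0371), and the median of the 9 was 0.13. Cadps of the granule list rose as well (2.51, SE 0.504, adjusted p = 0.0332). Exocrine markers summed to 180112 to 205964 CPM with pFUS, against 51968 to 263369 CPM (median 259598) in controls. Control 6, the lowest in Sst, had 15384 CPM of the exocrine gene Prss1, against 54332 to 78751 CPM in controls 3 to 5. The part of islet and exocrine content in the Sst value was not tested.

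In obese rats pancreatic Sst was at 10.5, 2.00, 3.78, 2.19 and 4.01 CPM with pFUS, against 7.23, 4.05, 6.78, 12.3 and 2.14 CPM in controls. This came to a log2 fold change of -0.54 (SE 0.537, -1.76 to 0.68, adjusted p = 0.87), and 0 of 1 member was called beside 7 of 9743 genes (0.0718%). Pancreatic Trh, known from islet beta cells, was at 2.36, 0.217, 3.36, 0.904 and 0.917 CPM in obese pFUS rats, against 0.813, 1.26, 0.982, 3.07 and 0.749 CPM in obese controls. The 3.36 CPM were 8 counts in the shallowest library (2380545 counts). In DIO-stz rats Trh had 0, 0, 2 and 3 counts with pFUS and 0 in all 4 controls. It was below the filter and was not tested.

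Kidney Gal was picked out after its values were seen, and it has no test. It was at 7.71, 4.15, 12.2, 8.60 and 0.0756 CPM in DIO-stz pFUS rats 7 to 11, against 1.36, 1.03, 0.0574 and 0 CPM in DIO-stz controls. The 4 males with pFUS had 34 to 164 counts each, while the female with pFUS had 1 count. The DIO-stz groups held unequal numbers of females. How many of all genes differ in this way in kidney was not counted, so the difference is not shown to be particular to Gal. The diet resistant females had 2.42 and 0 CPM, and no obese ZDF kidney exceeded 0.171 CPM. Genes of the adrenal gland, which lies on the kidney, summed to at most 0.797 CPM with pFUS and 0.768 CPM in controls.

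**Figure D5:**
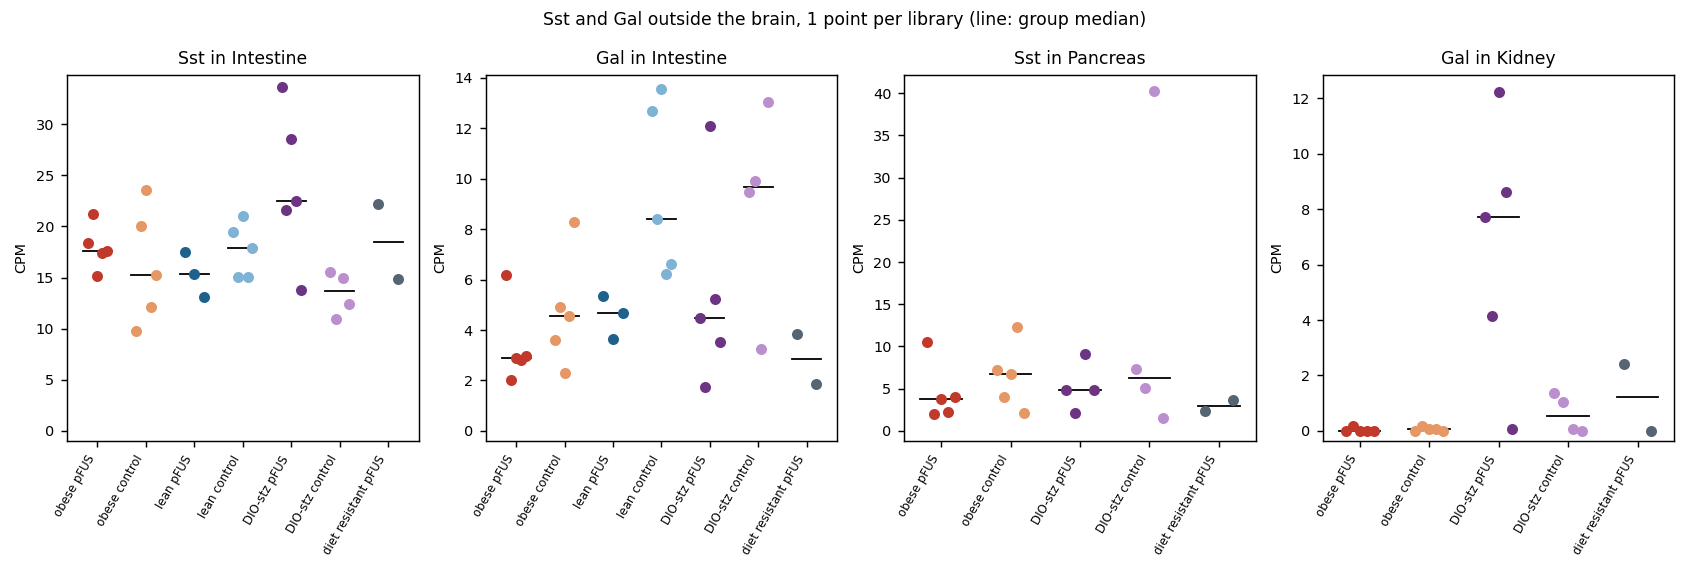
CPM per library, by group, of Sst in intestine, Gal in intestine, Sst in pancreas and Gal in kidney, each with a line at the group's median. In kidney 4 of 5 DIO-stz pFUS libraries lie at 4.15 to 12.2 CPM and all obese libraries at or under 0.171 CPM, and in pancreas DIO-stz control 5 stands alone at 40.3 CPM.

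Over all 52 tests of a member in a comparison, 6 had an unadjusted p under 0.05 and 0 an adjusted one. The 6 were Sst in brain (obese pFUS against lean pFUS), Sst in intestine with pFUS in DIO-stz and in obese rats, Gal in intestine for obese against lean controls and for pFUS in lean rats, and Sst in pancreas with pFUS in DIO-stz rats. Over all genes, 3133 of 14791 had an unadjusted p under 0.05 in that brain contrast. In intestine 349 of 14068 genes did with pFUS in DIO-stz rats and 2642 of 14709 with pFUS in obese rats. There 1990 of 14709 did for obese against lean controls and 1570 of 14709 with pFUS in lean rats. In DIO-stz pancreas 1124 of 10743 genes did.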

How the data were processed

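Stranded mRNA libraries were sequenced from 8 rat tissues, with total RNA kits used for pancreas and adipose samples, per the labels' protocols. The submitters' processing notes name STAR 2.5.3a, RSEM and Rnor_6.0. Values deposited by the authors are expected counts by gene, stored as rounded whole numbers with no normalization. All libraries entered the values given first, and among 140 pairs of replicates 0 were identical. Libraries of a group carry different numbers and were taken as different rats.

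Each tissue was fitted with edgeR 4.0.16 (R 4.3.3): TMM factors, filterByExpr at a minimum count of 10, quasi-likelihood tests, and Benjamini-Hochberg adjustment over all genes tested at 0.05. Groups of a cohort shared a fit, and DIO-stz fits held sex as a term. SE was taken from the log2 fold change and F. The alternatives were DESeq2 (1.42.0), size factors by RLE, no filter, only the groups compared, males alone, a model without sex, and each library left out in turn. Fits without libraries poor in Hcrt and Pmch (under 5 CPM) or rich in Fabp6 (over 1000 CPM) were added after seeing the data. Correlations used permutation within groups. The scripts were tested on simulated data. Other tools were matplotlib 3.10.9, scipy 1.17.1, pandas 2.3.3, numpy 2.4.6 and Python 3.11.15.

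The members, gene lists and tests were chosen with earlier results of these data known. All 8 members are named. Other genes named are the 3 nearest to each member by correlation, the called members of a list, and markers. Ratios, kidney values and the split of Brain libraries were picked after their values were seen. Floors of counts cover counting error only. The test of one gene list is not reported here.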

Additional observations from a re-analysis of the deposited data

Results flagged for a closer look

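Groups of 4 or 5 libraries in which a member averaged at least 1 CPM numbered 53 over the members. In these, 10 single values stood far from the others of their group by Dixon's test at the 95% level. A group can reach that average through the value flagged. The nominal rate of 1 flag in 20 groups holds for normally distributed values. Oxt and Avp in brain were split between values near 0 and values far above, so the 10 flags are not set against that rate. In brain, lean control 12 was high in Oxt (176 CPM, the others 0 to 10.4), Avp (188 CPM, the others 0.343 to 30.9) and Gal (9.74 CPM, the others 1.06 to 2.76). Also in brain, Oxt was high in obese pFUS 7 (120 CPM, the others 0 to 26.7) and in obese control 4 (25.1 CPM, the others 0 to 6.93), and Avp in DIO-stz pFUS 11 (165 CPM, the others 0 to 25.8). All 4 of these libraries were among the 17 with at least 5 CPM of Hcrt plus Pmch. In pancreas, Sst was high in DIO-stz control 5 (40.3 CPM, the others 1.54 to 7.35) and in obese pFUS 6 (10.5 CPM, the others 2.00 to 4.01), and Trh in obese control 4 (3.07 CPM, the others 0.749 to 1.26). In intestine, Gal was high in obese pFUS 6 (6.20 CPM, the others 2.01 to 2.96).

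Outside the tissues compared, Gal in kidney reached 12.2 CPM in a DIO-stz rat with pFUS, against at most 1.36 CPM in DIO-stz controls. It was picked after its values were seen, has no test, and other kidney genes were not counted beside it.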

How the results depend on the processing

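The count of members called was 0 in each of the 13 comparisons and in all 202 recomputed counts. The lowest adjusted p of any member under any setting was 0.0513, for Sst in DIO-stz pancreas. Of 849 recomputed member values 45 changed sign, 11 of them where the log2 fold change reported was over 0.5 in size: 4 for Oxt, Avp, Trh and Gal in DIO-stz brain without control 5 (2.33, 0.64, 0.28 and 0.20), 2 for Oxt and Avp in obese against lean controls without lean control 12, 2 for Avp and Trh with pFUS in obese brain without obese pFUS 7 (-0.15 and -0.12), 2 for Oxt in the difference between pFUS effects, and Gal in females against males in the 5 rich libraries (-0.34). Pairs of members that varied together numbered 8 of 15 over all 31 libraries, 3 in the 17 with at least 5 CPM of Hcrt plus Pmch and 0 in the 14 under it, and 6 with no group means removed. For pFUS against control in obese intestine, calls over all genes were 359 without the 3 libraries of that fit rich in Fabp6 (obese control 1 and lean controls 11 and 14), against 9 with them, and 562 by DESeq2. No paired analysis was possible because groups compared share no replicate number in the labels. Intervals of Oxt and Avp were wide enough that differences of several log2 units were not detectable in these brain libraries.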
